A study of Mus musculus with 22 samples.

Results

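The comparison described here sets chromatin accessibility in KIT-positive spermatogonia of Tert-deleted mice against MCAM-high, KIT-negative spermatogonia of the same genotype. It was chosen by sample label and holds 6 of the 22 libraries of the series, 3 for each of the 2 populations. Every library is an ATAC-seq profile, in which a transposase cuts DNA that is not covered by nucleosomes, so that the number of fragments in a peak reports how open that stretch of chromatin is. All mice were C57BL/6 and were 8 to 12 weeks old. Mice of the spermatogonial libraries had received tamoxifen, and their cells were taken by flow sorting on day 7 after it.

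In the series' own account TERT, the catalytic protein of telomerase, was deleted acutely with a tamoxifen-dependent Cre and loxP sites. The samples of this comparison are titled TERT-deleted US-h (sorted MCAM-high:KIT-) and TERT-deleted DS (sorted MCAM-Med:KIT+). The control samples are titled TERT-hetero and were sorted through the same gates, with 3 MCAM-high and 3 KIT-positive libraries. Deleted MCAM-medium, KIT-negative cells (3 libraries) and control MCAM-medium cells (2 libraries) are described by their levels and entered the shared fit that sets the spread. Later germ cells of TertTdtomato/+ mice (5 libraries) are used only for their levels, and no day after tamoxifen is recorded for them. Deleted and control spermatogonia carry the same genotype entry, TertCreER/+:Rosalsl-Tdtomato/+, so the deletion rests on the sample titles and the design text alone. That entry places the Cre at the Tert locus, so that Cre is made in cells that express Tert. No label says whether libraries of a group came from separate animals, so p-values cover only the variation among the libraries at hand, part of which may be technical.

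Spermatogonial stem cells lie among the undifferentiated spermatogonia, which lack the receptor tyrosine kinase KIT and depend on GDNF from Sertoli cells. Retinoic acid drives their differentiation: KIT appears on the surface, the cells pass through a series of rapid divisions, and retinoic acid later induces Stra8 at the entry into meiosis. MCAM is a cell adhesion molecule whose level on the surface grades the undifferentiated cells.

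The 3 deleted MCAM-high libraries held 1071255, 1466424 and 1200252 counts in peaks, and the 3 deleted KIT-positive libraries 1155629, 1802877 and 1373694. The populations also differed in where those counts lay. Gene-end peaks, those with an annotated start or end of a gene at most 1 kb away, took 52.8 to 54.5% of the counts of MCAM-high libraries and 57.7 to 63.0% of those of KIT-positive libraries, and trimmed-mean (TMM) scaling factors were 1.06 to 1.08 against 0.868 to 0.940. Control KIT-positive libraries lay at 54.4 to 64.2%. Deleted KIT-positive replicate 1 stood apart, with 25.2% of peaks at 0 and 70.5% even counts among its nonzero values, against 9.47 to 13.2% of peaks at 0 in the other 5 libraries. Levels below are CPM, the usual depth-scaled counts, after TMM scaling, given for replicates 1, 2 and 3 in that order, and differences are KIT-positive minus MCAM-high on the log2 scale ± SE. A peak was called at a Benjamini-Hochberg adjusted p under 0.05 in edgeR's quasi-likelihood test over 57289 peaks. In sorted bulk cells, a more open site in every cell and a larger share of cells in which the site is open cannot be told apart.

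The promoters shown next belong to the listed genes with the largest called differences whose peak overlaps the RefSeq promoter window. The 250 bases before the annotated start (RefSeq, GRCm38.p6, plus strand for all 6 genes) are given for 5 promoters that were more open in deleted KIT-positive cells and 1 that was less open. The 5 are Cdc6, which loads the replicative helicase, Stra8, which retinoic acid induces at the entry into meiosis, Meioc, Nhp2 and Smc3. Meioc holds germ cells in the meiotic programme. Nhp2 is a protein of H/ACA ribonucleoproteins and of telomerase, and Smc3 is a cohesin subunit. Ccnd3 encodes the G1 cyclin D3. Capitals mark matches on either strand to the motifs searched: the GC box is GGGCGG, the E-box is CACGTG, and the plain CCAAT box is its own name. The cyclic AMP element is TGACGTCA. The ETS motif is CCGGAAG, the motif of NRF1 is GCATGCG and that of E2F is TTCCCGCC. The AP-1 motif is TGANTCA, the forkhead motif is TGTTTAC and the SOX motif is AACAAT. The core site of nuclear receptors is AGGTCA and the TATA box is TATAAA. Matches may overlap.
Cdc6, chr11:98907901-98908150: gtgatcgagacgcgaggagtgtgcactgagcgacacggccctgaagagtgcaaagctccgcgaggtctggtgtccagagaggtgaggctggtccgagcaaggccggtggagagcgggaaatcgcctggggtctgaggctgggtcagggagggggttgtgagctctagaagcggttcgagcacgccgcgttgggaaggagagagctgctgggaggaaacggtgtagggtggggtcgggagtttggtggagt
Stra8, chr6:34920698-34920947: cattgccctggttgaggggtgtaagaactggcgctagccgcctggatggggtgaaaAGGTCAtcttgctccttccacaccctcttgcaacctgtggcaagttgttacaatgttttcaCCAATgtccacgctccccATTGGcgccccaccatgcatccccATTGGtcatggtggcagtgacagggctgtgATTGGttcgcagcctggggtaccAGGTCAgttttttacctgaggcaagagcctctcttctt
Meioc, chr11:102665335-102665584: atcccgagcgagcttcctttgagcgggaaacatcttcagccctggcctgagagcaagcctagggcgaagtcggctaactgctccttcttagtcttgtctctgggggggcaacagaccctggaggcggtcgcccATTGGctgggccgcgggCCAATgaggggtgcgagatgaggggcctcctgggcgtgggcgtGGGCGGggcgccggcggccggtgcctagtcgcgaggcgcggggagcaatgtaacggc
Nhp2, chr11:51619523-51619772: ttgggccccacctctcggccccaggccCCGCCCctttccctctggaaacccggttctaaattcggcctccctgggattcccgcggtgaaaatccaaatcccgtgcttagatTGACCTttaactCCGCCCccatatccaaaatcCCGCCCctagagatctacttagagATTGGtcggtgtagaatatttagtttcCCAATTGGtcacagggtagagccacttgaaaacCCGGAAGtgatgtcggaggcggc
Smc3, chr19:53600146-53600395: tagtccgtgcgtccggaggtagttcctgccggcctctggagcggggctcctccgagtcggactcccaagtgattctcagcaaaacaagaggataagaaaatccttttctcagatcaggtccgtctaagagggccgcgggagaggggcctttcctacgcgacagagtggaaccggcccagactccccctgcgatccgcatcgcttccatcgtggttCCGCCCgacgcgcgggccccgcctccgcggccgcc
Ccnd3, chr17:47504801-47505050: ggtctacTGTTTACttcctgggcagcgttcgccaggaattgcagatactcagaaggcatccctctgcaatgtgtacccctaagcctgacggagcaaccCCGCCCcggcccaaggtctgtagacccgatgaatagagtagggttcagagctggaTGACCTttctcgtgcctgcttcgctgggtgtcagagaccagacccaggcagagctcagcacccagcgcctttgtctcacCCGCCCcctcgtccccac

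The peak over the Cdc6 promoter (chr11:98907504-98908403) stood at 17.1, 14.6 and 25.4 CPM in deleted MCAM-high libraries and at 87.8, 64.0 and 52.4 CPM in deleted KIT-positive libraries. The groups did not overlap, and the difference was 1.83 ± 0.32 (edgeR, adjusted p = 7.28e-05). Its window holds none of the 12 motifs, which says only that those letters are not in it. The Stra8 window holds 4 CCAAT boxes and 2 nuclear receptor core sites, and its peak (chr6:34920661-34921461) read 19.02, 5.58 and 16.1 CPM against 34.5, 63.3 and 19.4 CPM. KIT-positive replicate 3 lay barely above the highest MCAM-high library there. The Stra8 difference was 1.59 ± 0.39 (edgeR, adjusted p = 0.00419), and the call was lost without either library numbered 2.

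Meioc (chr11:102665118-102666480) rose from 37.1, 26.5 and 22.1 CPM to 96.2, 80.4 and 77.7 CPM, by 1.57 ± 0.31 (edgeR, adjusted p = 3.33e-04). Nhp2 (chr11:51619257-51620209) rose from 21.9, 20.9 and 33.9 CPM to 85.7, 81.1 and 59.1 CPM, by 1.56 ± 0.27 (edgeR, adjusted p = 9.46e-05). The Nhp2 window has 3 GC boxes, 3 CCAAT boxes, 1 ETS match and 1 nuclear receptor core site. Smc3 (chr19:53599791-53601013) rose from 34.2, 36.2 and 36.5 CPM to 128, 88.7 and 97.1 CPM, by 1.54 ± 0.26 (edgeR, adjusted p = 4.19e-05). In these 3 genes every KIT-positive library exceeded every MCAM-high library by a wide margin. Ccnd3 (chr17:47504853-47505352) went the other way, from 31.4, 28.6 and 25.4 CPM to 6.27, 8.87 and 16.9 CPM. Its difference was -1.40 ± 0.39 (edgeR, adjusted p = 0.0122), and it was not called without KIT-positive replicate 1 or without replicate 2.

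Across the genome, with TMM scaling, more peaks were higher than lower. Of the tested peaks, 5382 (9.39%) were higher and 2492 (4.35%) lower in deleted KIT-positive than in deleted MCAM-high cells. Higher peaks made up 68.4% of the 7874 calls under TMM scaling. The balance depends on the scaling: with library totals alone 3576 peaks were higher and 4154 lower (46.3% higher), and the median difference of all tested peaks moved from -0.05 to -0.28. With loess offsets, which remove trends of the difference with peak strength, 4122 were higher and 2727 lower (60.2% higher). Changes at single genes below are relative to the TMM baseline.

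Peaks are called for differences that are large against the spread, so the sizes of called differences are partly set by that choice. Among called peaks, 4270 of the higher and 2340 of the lower differed more than 2-fold, and 2075 and 958 more than 4-fold. Over all tested peaks, 17784 (31.0%) differed more than 2-fold and 4716 more than 4-fold. The median difference was 1.59 over the higher peaks and -1.80 over the lower ones, and 97.7% and 95.4% of them had KIT-positive and MCAM-high libraries that did not overlap in CPM, which held for 33.7% of all tested peaks. Deleted KIT-positive replicate 1 and MCAM-high replicates 2 and 3 carried the counts most. Leaving these libraries out 1 at a time gave 3574, 3434 and 3562 higher and 1457, 1444 and 1496 lower peaks, and without KIT-positive replicate 2 there were 3863 and 1605.

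The same 2 gates were sorted from control mice, whose libraries share none with the deleted ones. There 5522 peaks (9.64%) were higher and 3502 (6.11%) lower in KIT-positive cells. Of the peaks called in deleted cells, 5277 of 5382 higher and 2400 of 2492 lower peaks had the same sign in control cells, against 75.02% of all tested peaks, and 3342 (62.1%) and 1203 (48.3%) were called there in the same direction. Their median differences in control cells were 1.10 and -1.26, smaller than the 1.59 and -1.80 of the cells in which they were called. The same held in reverse: peaks called in control cells had medians of 1.49 and -1.79 there and of 1.27 and -1.07 in deleted cells. Over all tested peaks, which share libraries and depth, the differences in deleted and control cells correlated with r = 0.653.

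**Figure D1:**
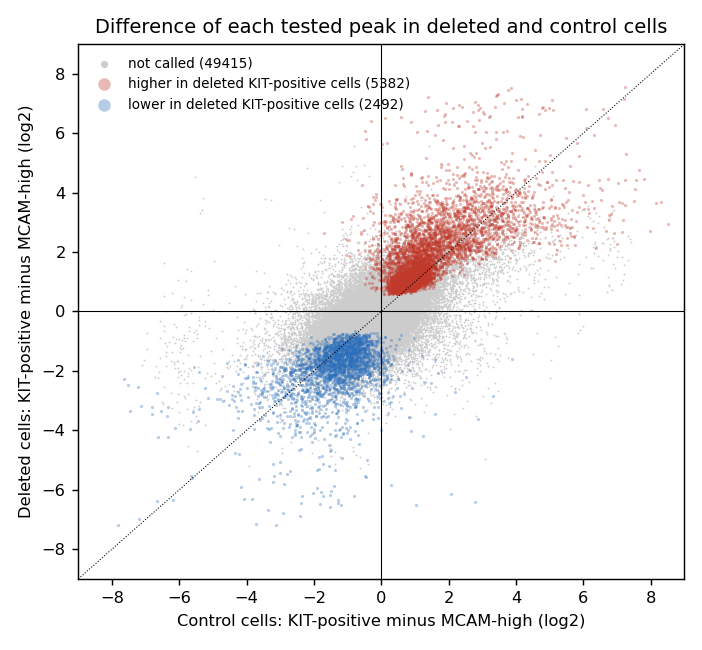
Each point is 1 of 57289 tested peaks, with its KIT-positive minus MCAM-high difference (log2) in control cells on the x axis and in deleted cells on the y axis; red and blue mark the 5382 higher and 2492 lower peaks called in deleted cells, and the dotted line marks equal differences. Nearly all coloured points have the same sign on both axes.

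A test of the difference between the deleted and control contrasts called no peak (0% of 57289; smallest adjusted p = 0.768 in edgeR). At an unadjusted p under 0.05 there were 2855 peaks (4.98%), and DESeq2 also called 0, with 2761 at that unadjusted level. Failing to pass does not show that the contrasts are equal. Only 3 peaks were called in opposite directions, chosen here after their values were seen. They lie in the body of Rangap1 (chr15:81718290-81719153), which activates the Ran GTPase at the nuclear pore (-2.86 in deleted and 3.33 in control cells), between genes near Marchf5 (chr19:37240476-37240925; -2.20 and 2.52), and on the unplaced contig JH584304 (-0.91 and 0.97). The Rangap1 call was lost without any single library except MCAM-high replicate 2.

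The deleted MCAM-medium cells, which are not in this contrast, lay between the populations compared. At the higher peaks, the median over peaks of the group mean was 10.2 CPM in MCAM-high, 18.4 CPM in MCAM-medium and 33.5 CPM in KIT-positive deleted cells. At the lower peaks it was 18.6, 13.5 and 4.92 CPM. The medium mean lay between the other 2 at 83.4% of higher and 83.5% of lower peaks, and on the log2 scale it was nearer to MCAM-high at 71.4% and 80.7%. MCAM-medium cells, which are KIT-negative, were thus closer to the MCAM-high cells at most called sites. These sites were chosen by the difference between the other 2 groups in the same libraries. That choice by itself tends to place another group between them, and the shares over all tested peaks were not computed.

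Control cells followed the same order, with 14.1, 15.4 and 31.5 CPM at the higher and 17.2, 16.5 and 6.99 CPM at the lower peaks, although control MCAM-high and MCAM-medium libraries overlapped. One control MCAM-high library read 18.6 CPM at the higher peaks, above the other 2 at 11.1 and 12.3 CPM. In later germ cells, scaled separately over all 22 libraries, the medians of both sets were low, at 6.36 and 6.03 CPM. Their upper quartiles were 54.2 CPM at the higher and 11.7 CPM at the lower peaks, so part of the higher peaks had high levels there.

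**Figure D2:**
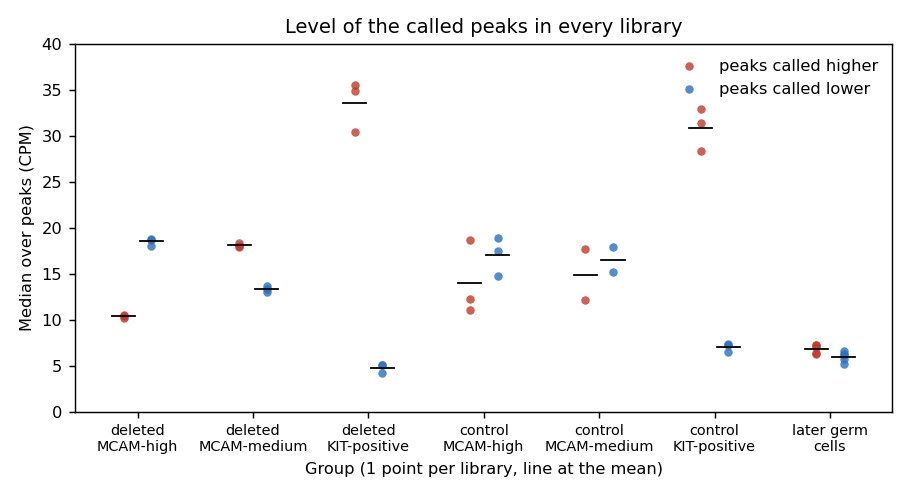
Median level in CPM over the 5382 higher (red) and 2492 lower (blue) peaks in each library, by group on the x axis, with a line at the mean of the libraries; later germ cells were scaled separately. Deleted MCAM-high libraries sit at 10.2 to 10.5 CPM for higher peaks, deleted MCAM-medium at 17.9 to 18.3 CPM and deleted KIT-positive at 30.4 to 35.5 CPM.

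Higher and lower peaks lay at different kinds of site. Gene-end peaks made up 45.9% of higher and 24.1% of lower peaks, gene-body peaks 34.7% and 35.5%, and intergenic peaks 19.5% and 40.4%. Seen by class, 12.9% of gene-end peaks were higher and 3.13% lower, whereas intergenic peaks were called nearly equally often in both directions, at 5.60% and 5.37%. Peaks overlapping a RefSeq promoter window were higher in 15.7% and lower in 2.92% of 12268 cases.

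Peak strength moves with this result. Peaks were split into 5 sets of equal size by mean level. In the strongest set, of which 75.3% are at gene ends, 2543 were higher and 560 lower with TMM scaling. With loess offsets 1115 were higher and 1244 lower in that set, and its median difference moved from 0.32 to 0.01. The part of peak strength in the excess at gene ends was not tested separately.

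Chromosomes differed as well. On chromosome 11, 16.2% of 3405 tested peaks were higher and 1.73% lower, and on chromosome 19 it was 14.3% and 2.30%. The X chromosome, which is silenced in meiotic spermatocytes, showed the opposite balance, with 42 higher (3.33%) and 112 lower (8.87%) of 1262 peaks and a median difference of -0.44. Autosomes together stood at 9.54% and 4.23%. The X chromosome of control cells had 2.30% higher and 13.6% lower.

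**Figure D3:**
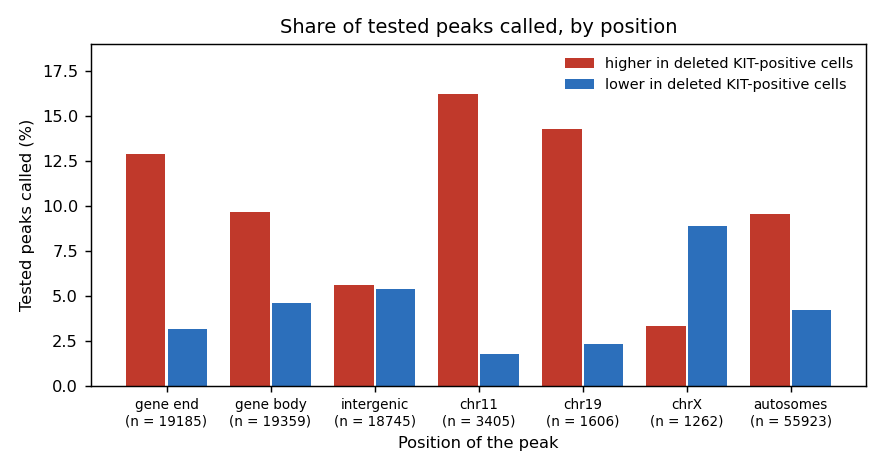
Share of tested peaks called higher (red) or lower (blue) in deleted KIT-positive cells, by class of site and by chromosome on the x axis, with the number tested below each pair of bars. Gene ends reach 12.9% higher against 3.13% lower, and the X chromosome 3.33% against 8.87%.

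On the Y chromosome 3 of 53 tested peaks were higher and 5 lower. The highest of them (chrY:90741007-90744281), at the end of the predicted gene Gm52481, rose from 137, 196 and 142 CPM to 809, 996 and 747 CPM, by 2.42 ± 0.27 (edgeR, adjusted p = 3.98e-08), and by 2.18 in control cells. Zfy2, a Y-linked zinc finger gene, fell at its gene end (chrY:2170222-2170663) from 15.2, 12.5 and 10.2 CPM to 4.18, 3.17 and 1.69 CPM, by 2.05 on the log2 scale, and by 3.70 in control cells. The other 4 lower peaks were intergenic; 1 of them (chrY:7027473-7028073) read 50.4, 30.7 and 50.04 CPM in deleted MCAM-high and 8.36, 12.0 and 21.9 CPM in deleted KIT-positive cells, and 0 in all 3 control MCAM-high libraries. Y-linked sequence is repetitive, and how reads with several placements were counted is not given in the sources used here.

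Among called peaks of protein-coding genes that reached a mean of 20 CPM in the higher group, without overlap between the groups and not on Y, 11 of the 12 with the largest rises lay in gene bodies, at sites almost without counts in deleted MCAM-high cells. In the body of Eftud2, which encodes a spliceosomal GTPase, a peak (chr11:102867093-102867495) held 0, 0.697 and 0 CPM in MCAM-high and 23.0, 26.0 and 22.8 CPM in KIT-positive libraries. With 1 count against 90, the scaled ratio was 88.7, with an exact 95% counting interval of 15.5 to 3540. A site in the body of Sumf1, the activator of sulfatases (chr6:108183083-108183512), went from 0.951, 0 and 1.70 CPM to 37.6, 47.5 and 31.2 CPM, a ratio of 48.6 (16.3 to 238). Control cells showed the same pattern at both, with differences of 3.71 and 4.56 and adjusted p of 1.73e-04 and 3.85e-08 in edgeR.

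A further 10 higher peaks met the same rule for size. At Tns1, the focal adhesion protein tensin 1 (chr1:74110637-74111178), levels went from 1.90, 0 and 1.70 CPM to 55.4, 34.8 and 16.9 CPM, a difference of 4.90 ± 0.73 (edgeR, adjusted p = 7.57e-06). The gene end of Eppin, an inhibitor of proteases on sperm (chr2:164594041-164594447), went from 1.90, 0.697 and 0 CPM to 32.4, 20.3 and 21.1 CPM. The remaining sites lay in the bodies of Nf2, Deaf1, Pacsin1, Ankrd6, Tango6, Scp2, Fbxl19 and Ift27. Eppin alone of the 12 was at a gene end, all 12 were also called higher in control cells, and none of the 12 calls was lost under any alternative that tested them.

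Lower peaks of the same kind were nearly closed in KIT-positive cells. At Galnt14, which starts O-linked glycosylation, a body peak (chr17:73694138-73694644) fell from 47.6, 33.5 and 34.8 CPM to 0, 1.27 and 2.53 CPM, a difference of -4.76 ± 0.56 (edgeR, adjusted p = 1.50e-07), with -4.34 in control cells. At Oxr1, an oxidation resistance gene (chr15:41515427-41516102), levels went from 62.8, 33.5 and 25.4 CPM to 3.14, 0 and 1.69 CPM. Gsta3, a glutathione transferase (chr1:21252349-21252988), went from 18.1, 30.0 and 24.6 CPM to 0, 1.27 and 1.69 CPM. The other sites by this rule were at Adat1, Cacnb4, LOC108168726, Clybl, Zfpm1, Plaat3, Usp29, Proser2 and Neurod4, and 11 of the 12 were also called lower in control cells.

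Neurod4 was the exception. This gene of a neurogenic transcription factor fell at its promoter (chr10:130279955-130280603) from 17.1, 26.5 and 21.2 CPM to 4.18, 2.53 and 1.69 CPM in deleted cells, by 2.96 (SE 0.54; edgeR, adjusted p = 1.63e-04). In control cells the levels were 8.53, 16.97 and 20.97 CPM against 4.84, 9.85 and 12.9 CPM, which overlap, with a difference of -0.71 (adjusted p = 0.302). The edgeR test between genotypes gave an adjusted p of 0.908 (0.00311 before adjustment), so it did not pass.

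Some genes had calls at several of their peaks. The genes named here were chosen by their number of called peaks, which favours genes with many tested peaks. Over all tested peaks, 9.39% were higher and 4.35% lower. Tex14, which is needed for the intercellular bridges that join dividing germ cells, had 7 of 12 tested peaks higher (differences of 1.19 to 2.79) and none lower; 3 of the 7 were called in control cells. Pitpnc1 had 5 of 15 higher, Kalrn 5 of 21, Gse1 5 of 23 and H2-DMa 4 of 6. Some of these peaks also lie at the ends of other genes and stand for both. Among them are the H2-DMa peaks chr17:34120894-34121955 and chr17:34122293-34122841, shared with Brd2, and the Tex14 peak chr11:87404091-87405297, shared with Rad51c. Frmd4a had 5 of 17 lower, Tnfrsf8 (the receptor CD30) and Zfp444 had all 3 of their tested peaks lower, and Usp29 and Arhgap24 had 4 lower beside 1 and 2 higher. In all, 77 genes had 3 or more higher peaks, 19 had 3 or more lower, and 223 had peaks called in both directions. The number of genes with as many tested peaks is not given here, so no share stands beside these gene counts. Many of the calls at the named genes are near the threshold: 1 of the 7 Tex14 peaks was not lost under any alternative.

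For gene groups, each gene was represented by its gene-end peak with the highest mean count. Of 19205 such genes, 3060 (15.9%) were higher and 606 (3.16%) lower, with a median difference of 0.21. The counts were 1876 and 1206 with library totals, and 1337 and 1126 with loess offsets. Of 389 genes on 22 lists, 331 had a tested gene-end peak, and 69 were higher and 4 lower. With loess offsets 33 were higher and 10 lower, with library totals 48 and 12, and without KIT-positive replicate 1 there were 43 calls in all.

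**Figure D4:**
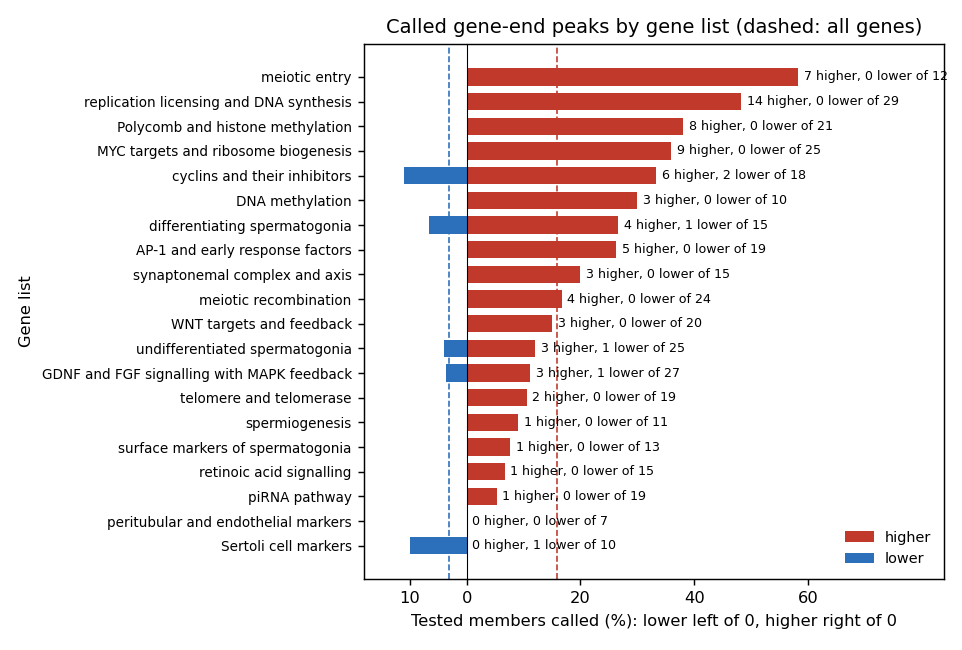
Share of tested members of each list called higher (red, right of 0) or lower (blue, left of 0) in deleted KIT-positive cells, with the counts beside each bar and dashed lines at the 15.9% and 3.16% of all 19205 genes; the immune and Leydig cell lists, with 4 and 2 tested members, are not drawn. Meiotic entry (7 of 12) and replication (14 of 29) stand farthest to the right.

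Genes of differentiating spermatogonia were called higher in 4 of 15 cases (26.7%, against 15.9% of all genes) and lower in 1. Their median difference was 0.36, against 0.21 for all genes. Kit itself was more open at its promoter (chr5:75574595-75575816), with 40.9, 32.8 and 33.9 CPM in MCAM-high and 104, 57.6 and 57.4 CPM in KIT-positive libraries. The groups, which were sorted on the KIT protein, did not overlap, and the difference was 1.01 ± 0.27 (edgeR, adjusted p = 0.00799; 0.99 in control cells). The call was lost with loess offsets (adjusted p = 0.0541) and without KIT-positive replicate 1. Sox3, a transcription factor of spermatogonial differentiation, rose by 1.39 and Uhrf1, which recruits the maintenance DNA methyltransferase, by 1.23, from 62.8, 53.0 and 54.3 CPM to 167, 129 and 103 CPM. Sohlh1 (-0.49) and Sohlh2 (-0.38), transcription factors of early differentiation, did not pass. Dmrtb1, which governs the turn from mitosis to meiosis, was not called at the gene-end peak that stood for it. A second gene-end peak (chr4:107689653-107689972), which also lies at the end of 1700047F07Rik, had no count in MCAM-high libraries. It read 10.4, 5.70 and 11.8 CPM in KIT-positive libraries, at least 10.8-fold higher against a floor of 3 counts over the group.

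Of retinoic acid genes, Stra8 was the 1 of 15 called at its end (6.67%, against 15.9% of all genes), and the list median of 0.15 lay beside 0.21 for all genes. The receptor genes Rara (0.15), Rarg (0.36) and Rxra (-0.15) did not pass. Body peaks of Rara (1.38) and Rarg (1.63) were called higher and a body peak of Rarb lower (-1.46). Of 55 tested peaks at the ends or in the bodies of the listed genes, 3 were higher and 1 lower. Over all tested peaks the shares were 9.39% and 4.35%. In control cells the Rarg body peak was not called (edgeR, adjusted p = 0.138), while those of Rara and Rarb were called in the same directions. The Rarb call was lost with loess offsets (adjusted p = 0.0727).

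Genes of undifferentiated spermatogonia had 3 higher (12.0%, against 15.9% of all genes) and 1 lower of 25, with a median of -0.11. The 3 that rose are usually counted among genes of stem cell maintenance: Etv5, a GDNF-responsive factor (80.9, 93.4 and 92.4 to 199, 138 and 148 CPM; 0.85 ± 0.22; edgeR, adjusted p = 0.00696), Id4, an inhibitor of DNA-binding factors (1.09), and Bmi1, a Polycomb subunit (1.01). All 3 calls were lost without KIT-positive replicate 1, and Id4 and Bmi1 also with library totals, where 1 gene was higher and 3 lower. With loess offsets Etv5 stood at 0.17 (adjusted p = 0.537) and Id4 was not called (adjusted p = 0.0672). In control cells neither Etv5 (0.37, adjusted p = 0.256) nor Id4 (0.63, adjusted p = 0.208) passed. Without KIT-positive replicate 3 or MCAM-high replicate 3, 1 gene of the list was higher. Ccnd2, encoding cyclin D2, fell from 39.95, 41.8 and 56.0 CPM to 23.0, 17.7 and 28.7 CPM, a difference of -0.999 (edgeR, adjusted p = 0.0302). Nanos2, an RNA-binding repressor of differentiation, read 6.66, 12.5 and 8.48 CPM against 0, 5.07 and 0.844 CPM, and its difference of -1.99 ± 0.73 did not pass (adjusted p = 0.0581). Zbtb16 (0.63), Gfra1 (-0.26) and Ret (-0.06) did not pass either.

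Of the surface markers, Kit was the 1 of 13 called (7.69%). Mcam, the other gate, read 20.9, 26.5 and 37.3 CPM in MCAM-high and 42.9, 20.9 and 49.0 CPM in KIT-positive libraries (0.39, adjusted p = 0.461), so the libraries overlapped and did not follow the sorted protein. In the GDNF, FGF and MAPK list, 3 of 27 were higher (11.1%, against 15.9% of all genes) and 1 lower. Without KIT-positive replicate 1, 1 was higher and none lower, and with loess offsets 1 was higher and 1 lower. Spred2 rose by 1.18 and Egr1 by 0.64, while Spry4 fell by 1.13; Spred2 and Spry4 both encode inhibitors of the MAPK pathway, and Egr1 is an early target of it. The Egr1 difference turned to -0.15 with loess offsets, and its call was lost without any single library other than KIT-positive replicate 2. The Spry4 call was lost without KIT-positive replicate 1 or 2 or MCAM-high replicate 3. WNT genes had 3 of 20 higher, a share slightly below the 15.9% of all genes. The 3 were Znrf3 (1.38), which removes Frizzled receptors from the surface, Nkd1 (0.95) and Fzd7 (0.78). Of this list, 1 gene was called with either other scaling and without MCAM-high replicate 3.

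Early response factors were higher in 5 of 19 cases (26.3%, against 15.9% of all genes). The count was 1 with loess offsets, 2 with library totals, and 2 without KIT-positive replicate 1 or MCAM-high replicate 1. It was 3 without KIT-positive replicate 3 or MCAM-high replicate 2 or 3. Fosl2, an AP-1 subunit, rose from 22.8, 27.9 and 25.4 CPM to 119, 73.5 and 68.4 CPM, by 1.76 ± 0.29 (edgeR, adjusted p = 4.69e-05). Jund, its partner, rose by 1.04 and Klf4 by 0.90. Fos (0.27), Fosb (0.74) and Fosl1 (-0.09) did not pass; differences between these genes were not tested. Klf6 (0.65) moved to -0.02 with loess offsets.

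Replication genes were higher in 14 of 29 cases and lower in none, with a median of 0.84. They include 5 subunits of the MCM helicase, Mcm2 (1.13), Mcm4 (0.75), Mcm5 (0.997), Mcm6 (1.04) and Mcm7 (1.07), the origin factors Cdc6 and Orc6, and Gmnn, the inhibitor of licensing. Pcna, the sliding clamp, rose from 61.8, 53.0 and 82.3 CPM to 177, 172 and 160 CPM, by 1.37 ± 0.23 (edgeR, adjusted p = 4.11e-05). Mcm7 rose from 74.2, 91.3 and 108 CPM to 169, 194 and 213 CPM. Mcm3 (0.65), Mcm10 (0.49) and Cdt1 (0.66) did not pass. The peaks of Mcm4, Mcm7, Orc6 and Pcna also lie at the ends of the neighbouring genes Prkdc, Ap4m1, Vps35 and Cds2, so they stand for both. Control cells had 17 of 29 higher. The count was 12 with library totals, 4 with loess offsets, where the median was 0.40, and 8 without KIT-positive replicate 1.

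Cyclins and their inhibitors split. Ccna2, which drives S phase, rose by 1.13, Ccne2 by 0.88, Ccne1 by 0.79 and Cdk2 by 0.77, while the D-type cyclins Ccnd3 (-1.40) and Ccnd2 (-0.999) fell. A peak in the body of Ccnd3 (chr17:47555102-47555591) rose by 1.23, opposite to its promoter. The inhibitor genes Cdkn2a (1.06) and Cdkn2d (0.85) rose. With loess offsets 2 of 18 were higher and 2 lower, and Cdkn2d stood at -0.00. Without MCAM-high replicate 2, 3 were higher and 1 lower, and without KIT-positive replicate 1 there were 4 and 0.

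MYC targets and ribosome biogenesis genes were higher in 9 of 25 cases and lower in none, with a median of 0.57. Nolc1, a nucleolar chaperone, rose from 17.1, 24.4 and 26.3 CPM to 73.2, 60.2 and 50.7 CPM, by 1.42 ± 0.31 (edgeR, adjusted p = 0.00143). Nme1 rose by 1.24, Eif5a, a translation factor, by 1.22, and Fbl (fibrillarin), Npm1 and Bop1 by 0.91, 0.83 and 0.93. Myc (0.57), Mycn (0.90) and Mycl (0.34) themselves did not pass. With loess offsets 4 were higher and 1 lower, and 6 were higher without MCAM-high replicate 3.

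Chromatin regulators followed. Tet3, which oxidises methylcytosine, rose from 17.1, 12.5 and 13.6 CPM to 47.0, 41.8 and 52.4 CPM, by 1.71 ± 0.35 (edgeR, adjusted p = 6.09e-04). With Uhrf1 and Mbd1 (1.10) it made 3 of 10 DNA methylation genes higher (30.0%, against 15.9% of all genes). The methyltransferase genes Dnmt3b (0.07) and Dnmt3l (-0.22) did not pass at their ends. In the body of Dnmt3a 3 peaks fell, with differences of -1.20, -1.11 and -2.11, and a peak of Dnmt1 that overlaps a promoter window of the gene rose by 0.82. With loess offsets the Dnmt1 peak stood at 0.30 (adjusted p = 0.315) and the Dnmt3a peak with the difference of -2.11 was not called (adjusted p = 0.0510).

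Polycomb genes were higher in 8 of 21 cases and lower in none. Eed, the subunit that reads methylated H3K27, rose from 36.1, 32.1 and 55.1 CPM to 107, 102 and 99.6 CPM, by 1.32 ± 0.25 (edgeR, adjusted p = 2.20e-04). Others that rose were Ezh2 (0.71), Suz12 (0.87), Ezh1 (1.05), Jarid2 (1.04) and Cbx8 (1.18). Rnf2 (0.11) and Ring1 (0.27), which encode ubiquitin ligases, did not pass. The count was 5 with loess offsets, 4 with library totals, and 4 without KIT-positive replicate 1, MCAM-high replicate 1 or MCAM-high replicate 3.

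Meiotic entry genes were higher in 7 of 12 cases, with a median of 0.94, and control cells had 6 of 12. Beside Stra8 and Meioc they include Ythdc2 (0.94), the RNA helicase that works with MEIOC, Dmrt1 (1.20), which restrains meiosis in spermatogonia, and Bhmg1 (1.09). The count was 5 with library totals, with loess offsets, and without KIT-positive replicate 1 or 2 or MCAM-high replicate 2 or 3. Synaptonemal complex and axis genes were higher in 3 of 15, led by Smc3, and in 1 with either other scaling or without KIT-positive replicate 1, KIT-positive replicate 2 or MCAM-high replicate 1. Sycp1 (-0.43), Sycp2 (0.06) and Sycp3 (0.59), which build the complex, did not pass. Recombination genes were higher in 4 of 24 (16.7%, near the 15.9% of all genes), among them Msh5 (1.29), of the crossover pathway, and Gm960 (0.91). Spo11 (0.63) and Dmc1 (0.39) did not pass in deleted cells.

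Fkbp6, a chaperone cofactor of the piRNA pathway, was the 1 of 19 piRNA genes called (5.26%, against 15.9% of all genes). Its peak (chr5:135351901-135352440) went from 13.3, 1.39 and 5.09 CPM to 33.5, 43.7 and 31.2 CPM, by 2.53 ± 0.49 (edgeR, adjusted p = 3.67e-04). Control MCAM-high libraries were lower, at 1.16, 0.943 and 0.582 CPM, and the control difference was 5.24. The edgeR test between genotypes gave an adjusted p of 0.908 (0.00187 before adjustment). MCAM-high replicate 1 was the highest of the 6 MCAM-high libraries at this site. Of spermiogenesis genes, Rfx2 (0.92) was the 1 of 11 called (9.09%). None was called with loess offsets or without KIT-positive replicate 1 or MCAM-high replicate 3.

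Telomere genes were called higher in 2 of 19 cases (10.5%, against 15.9% of all genes). They are Nhp2 and Ten1 (1.06), a subunit of the complex that fills in telomere ends. Control cells had 6 of 19, with a list median of 0.47 against 0.33 in deleted cells. Control MCAM-high libraries were deeper, at a mean of 2212132 counts in peaks against 1245977, so the numbers of calls do not compare the genotypes. The test between genotypes called no peak. The Ten1 call was lost without KIT-positive replicate 1 or MCAM-high replicate 3, where 2 and 1 genes of the list were called. Tert read 19.02, 20.9 and 16.96 CPM at its promoter (chr13:73626569-73627516) in MCAM-high and 15.7, 15.8 and 17.7 CPM in KIT-positive cells, a difference of -0.21 (adjusted p = 0.748). A promoter peak does not test the deletion, whose position is not given in the sources used here. Terc, the telomerase RNA (chr3:96414052-96414936), read 34.2, 527 and 195 CPM against 29.3, 202 and 94.6 CPM, with a difference of -1.19 ± 0.51 (adjusted p = 0.112). Replicate 1 was far below replicates 2 and 3 in both populations. Dkc1 (-0.34) did not pass.

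**Figure D5:**
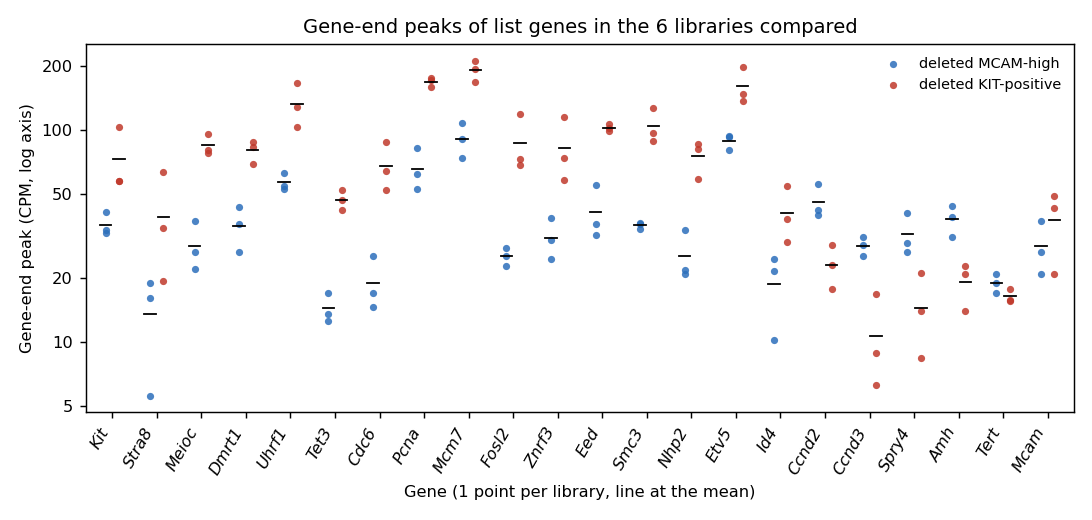
Level in CPM (log axis) of the gene-end peak of 22 list genes in the 3 deleted MCAM-high (blue) and 3 deleted KIT-positive (red) libraries, with a line at each mean. Groups are apart at Cdc6, Pcna, Meioc and Smc3 and overlap at Mcam and Tert.

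Markers of somatic cells were used to check the gates. Of 10 Sertoli cell markers tested at their gene ends, out of 13 listed, none was higher and Amh, the anti-Müllerian hormone gene, fell from 39.0, 43.9 and 31.4 CPM to 20.9, 13.9 and 22.8 CPM, by 1.01 (edgeR, adjusted p = 0.0318; -0.12 in control cells). That peak also lies at the end of Jsrp1, and the call was lost without each of 4 libraries, those numbered 1 and 2. Sertoli markers summed to 213 to 256 CPM in MCAM-high and 181 to 239 CPM in KIT-positive libraries. Leydig (2 of 9 listed genes tested), immune (4 of 11) and peritubular or endothelial (7 of 11) markers had no call at a gene-end peak, and those peaks summed to at most 71.1, 67.0 and 159 CPM in any of the 6 libraries. Away from those peaks, body peaks of the Sertoli genes Amhr2 (2.41) and Sox9 (1.20) and of the Leydig gene Cyp11a1 (3.70) were called higher, and body peaks of Pdgfra (-1.54) and Vwf (-1.03), of the peritubular and endothelial list, lower. An accessible promoter in a germ cell and a contaminating somatic cell both add counts at such sites, and the part of somatic cells in the results was not tested.

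Promoter windows with a higher peak differed in base composition from those with a lower peak. The share holding a GC box was 77.2% of 2703 windows with a higher peak and 42.6% of 418 with a lower one, against 64.1% of 15528 windows with any tested peak and 35.7% of all 32851 windows, each of 300 bases with 50 after the start. Median GC content was 64.3% and 55.0%, and the median number of CpG was 25 and 10. CCAAT was found in 48.9% and 49.3%, against 38.1% with any tested peak and 37.4% of all, so it was more frequent in both called sets.

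The other motifs were in smaller shares of the windows. E2F letters were in 5.92% of higher and 3.11% of lower windows (3.99% with any tested peak, 2.19% of all), NRF1 in 9.25% and 4.31% (6.52%, 3.58%), ETS in 20.7% and 11.2% (16.7%, 8.86%) and the E-box in 11.1% and 7.90% (10.3%, 7.15%). The nuclear receptor core site was in 9.40% and 14.6% (11.7%, 16.3%), forkhead in 2.48% and 3.83% (2.42%, 3.65%), SOX in 4.88% and 6.46% (5.58%, 10.7%) and TATAAA in 5.07% and 6.46% (6.04%, 13.6%). AP-1 letters were in 3.70% and 2.87% (4.33%, 7.81%), and the cyclic AMP element in 3.03% and 3.11% (3.12%, 1.79%). The GC box, ETS, NRF1 and E2F letters were thus more frequent in the set with the higher GC content, and the part of base composition in these shares was not tested.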

How the data were processed

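ATAC-seq counts per peak were deposited by the authors as 1 table of 96049 peaks by 22 libraries, as whole numbers without normalization. The submitters' processing notes name FastQC, Bowtie2, SAMtools and Picard and the builds mm10 and GRCm38 (hg19 is also named), without versions or roles; how peaks were called or counted is not given in the sources used here. Columns were matched to samples by library name. Peak coordinates are printed as deposited, and RefSeq gene models of GRCm38.p6 gave gene ends (within 1 kb of either annotated end), gene bodies and promoter windows; strand was not used, so a peak between neighbouring genes counts for each of them.

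All 17 spermatogonial libraries entered 1 fit with 6 group means in edgeR 4.0.16 (R 4.3.3): TMM scaling, the filterByExpr filter, which left 57289 peaks, and the quasi-likelihood test with Benjamini-Hochberg adjustment over all of them (11 residual degrees of freedom). CPM were scaled to the TMM-adjusted counts in tested peaks. Counting intervals are exact at 95% and cover counting error only, as does the floor of 3 counts. The procedure was tested on simulated counts.

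The members and gene lists were chosen with earlier results of these data known, so no list was tested. Named genes are the 12 higher and 12 lower peaks of largest difference (at least 20 CPM in the higher group, groups not overlapping, protein-coding, not on Y), up to 4 called members per direction and 3 uncalled ones per list, the 5 genes per direction with most called peaks, the 5 peaks with the smallest p in the test between genotypes, and Kit, Mcam, Tert and Terc. Other genes of a list are named where its called members are enumerated, and other peaks where they bear on a named gene; these were chosen after their values were seen. Some genes that the rules would name are not reported here. Alternatives were DESeq2 1.42.0, library totals, loess offsets (limma 3.58.1), no filter, the compared groups alone, the replicate number as a block, leaving out libraries, and other rules for the gene-end peak.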

Additional observations from a re-analysis of the deposited data

How the results depend on the processing

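Under TMM scaling 5382 peaks were higher and 2492 lower, and 73 list genes were called. Library totals gave 3576 and 4154 peaks, and loess offsets called 43 list genes (33 higher, 10 lower, against 69 and 4); with loess offsets the differences of Egr1, Klf6, Cdkn2d and Mxd4 turned to -0.15, -0.016, -0.0023 and -0.06. Leaving out 1 library gave 3434 to 4559 higher peaks, 1444 to 1873 lower peaks and 43 to 68 list genes. Without both deleted libraries of 1 number, an alternative chosen after seeing the data in which the fit keeps 2 against 2, the counts were 2158, 1000 and 26 for number 1, 2486, 942 and 45 for number 2, and 2636, 1101 and 35 for number 3. DESeq2, no filter, the compared groups alone and leaving out X, Y and contigs kept all 3 counts within 1.5 times, as did a 5 kb window (84 list genes) and the nearest gene-end peak (69). The test between genotypes gave 0 peaks under each alternative run. Of 123 called peaks named by rule, loess offsets lost 20 and reversed 3, library totals lost 22, and leaving out 1 library lost 19 to 36. With replicate number as a block, 4237 peaks were higher, 1738 lower and 64 list genes called. Same-numbered deleted libraries deviated from their group means with correlations of 0.0054, -0.0236 and 0.013. Differently numbered ones ranged from -0.0394 to 0.0358. Correlations this small cannot decide whether the number marks a shared source. The compared libraries held 1071255 to 1802877 counts each; in the weakest 1 of 5 equal sets of peaks 4.36% were higher and 1.78% lower.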

Other observations

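Of the sites with the smallest p in the test between genotypes, which are named by rank since none passed, Cbfa2t3, which encodes a transcriptional co-repressor, had a body peak (chr8:122687761-122688223) at 7.61, 2.79 and 0.848 CPM in deleted MCAM-high and 35.5, 26.0 and 23.6 CPM in deleted KIT-positive libraries, a difference of 2.94 ± 0.56 (edgeR, adjusted p = 2.80e-04) against 8.51 in control cells. Copg2, a coatomer subunit, had a body peak (chr6:30804485-30805754) with differences of -1.09 in deleted and 1.57 in control cells. A peak between genes near A530021J07Rik (chr7:83077246-83077782) had differences of -0.78 and -5.47.

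Called peaks within list genes often lay away from the gene end that stood for the gene. In the body of Axin2, a WNT feedback gene, a peak (chr11:108919003-108919280) rose by 3.67. It held 42 counts against 3, a scaled ratio of 13.8 (4.41 to 69.6). In the body of Lgr5, which encodes a co-receptor of R-spondins, a peak (chr10:115586297-115586753) rose by 2.03. Neither gene had a called end peak, and neither body peak was called in control cells (edgeR, adjusted p = 0.162 and 0.144). Of 72 tested end and body peaks of the WNT list 5 were higher, against 9.39% of all tested peaks. A body peak of Pdgfra, a receptor of mesenchymal cells (chr5:75194275-75194980), fell by 1.54 and 1 of Batf, an AP-1 family member (chr12:85705238-85706078), fell by 1.56. In Mxi1, an antagonist of MYC, peaks of the body rose by 1.65, at a promoter window of the gene, and by 2.83. All of these were chosen after their values were seen.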
